A study of Mus musculus with 4 samples.

Results

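Heat shock and chaperone genes were followed in the livers of 4 female F1 hybrid mice at 5 months of age. They were taken by name from the mRNA tables: every gene whose symbol starts with Hspa, Hspb, Hsp90 or Dnaj, together with Hspd1, Hspe1 and Hsph1. This gave 52 genes of 8797. F1 mice were bred from C57BL/6J (B6) and MSM/Ms (MSM), inbred strains of different subspecies. 2 mice came from MSM mothers and B6 fathers (MSM/B6, mother before father) and 2 from the reciprocal cross (B6/MSM), and no agent or genetic change was given in the labels. Poly(A) RNA of whole liver was sequenced, so each value is a mixture over the cell types of the tissue, and fewer cells of a type and less RNA per cell cannot be told apart. The labels do not say whether mice of a cross were littermates. Each gene had an expression level in FPKM (mapped fragments scaled by transcript length and library size). In every mouse, 21 of the 52 genes (40.4%) also had a B6-allele frequency, beside 41.3% of all genes. It is the share of B6 reads among the reads that could be given to either parental chromosome.

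Chaperones bind other proteins while these fold, assemble, cross membranes or recover from damage. HSP70 proteins bind and release clients in a cycle driven by ATP, J-domain proteins (the Dnaj genes) bring clients to HSP70 and stimulate its ATPase, and HSP90 proteins act on a selected set of clients such as kinases and steroid receptors. HSP60 with its lid HSP10 folds proteins inside mitochondria, and small heat shock proteins hold unfolding proteins without using ATP. Many, but not all, of these genes are induced through heat shock factor 1 (HSF1) when proteins unfold in the cytosol, and chaperones of the endoplasmic reticulum (ER) are induced through the unfolded protein response. Liver cells secrete much of the protein of blood plasma and are rich in ER chaperones.

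By role, the 52 genes comprised 3 HSP90 genes, 8 HSP70 genes (Hsph1, a member of the HSP110 branch, among them), the HSP60 and HSP10 genes Hspd1 and Hspe1, 3 small heat shock genes (Hspb1, Hspb6 and Hspb8) and 34 J-domain genes (3 Dnaja, 8 Dnajb and 23 Dnajc). Hspb11 and Hspbp1 were taken in by their prefix and are not small heat shock genes. The former encodes a component of intraflagellar transport and the latter an exchange factor of HSP70. In the GENCODE M21 annotation of mm10 the naming rule covers 74 protein-coding genes. The other 22, among them the strongly heat-inducible Hspa1a and Hspa1b, were not analysed here. As the gene with the lowest mean in these tables had 2.50 FPKM, the 52 genes are those with at least a low level in liver.

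The hepatocyte markers were high in every mouse, with 8 of 10 measured (Alb and Tf were not analysed here) and a summed level of 21641 to 26768 FPKM. None of the 6 lymphocyte markers was in the tables. Kupffer cell markers (10 of 12 measured) summed to 295 and 249 FPKM in MSM/B6 replicates 1 and 2 and to 354 and 331 in B6/MSM replicates 1 and 2. Endothelial markers (9 of 9) summed to 203, 189, 220 and 225 FPKM in the same order. Both sums were thus higher in the B6/MSM mice. Stellate cell markers (6 of 10) summed to 225 to 259, with the crosses overlapping, and the single cholangiocyte marker measured of 5 had 9.51 to 14.6 FPKM. The part of cell composition in the chaperone values was not tested. Red blood cell markers (4 of 5 measured) differed most, at 308 and 128 FPKM in MSM/B6 replicates 1 and 2 and 769 and 449 in B6/MSM replicates 1 and 2. Hba-a2 made up most of this sum (175, 83.2, 610 and 398 in the same order). Hbb-bs was also higher in B6/MSM (2.13, 3.02, 14.3 and 23.1). Hba-a1 (124, 36.0, 136 and 23.6) and Alas2 (6.63, 6.21, 8.69 and 4.67) did not separate the crosses. The FPKM summed over all genes was 529024 to 671875 per mouse. The methods of the study give the number of read pairs only as a range over the libraries. Read counts per gene and the depth of each single library are not given. The precision of a single value is thus unknown, and the spread between mice stands in for it.

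A few genes made up most of the summed level of the 52 genes. Chaperones with other names, such as P4hb (mean 570 FPKM) and Calr (437), are not part of this sum. The 52 genes summed to 3459 ± 128 FPKM (SD, n = 4), and the 8 highest of them made up 71.5% of that sum. HSP70 genes contributed 30.4%, HSP90 genes 27.9%, J-domain genes 21.8%, HSP60 and HSP10 15.2% and small heat shock genes 4.01%. The median gene of the 52 had a mean of 22.1 FPKM against 11.5 over all genes, and 31 of the 52 lay above the latter. All levels in this and the next paragraphs are FPKM, which is per transcript length and can be compared between genes.

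**Figure D1:**
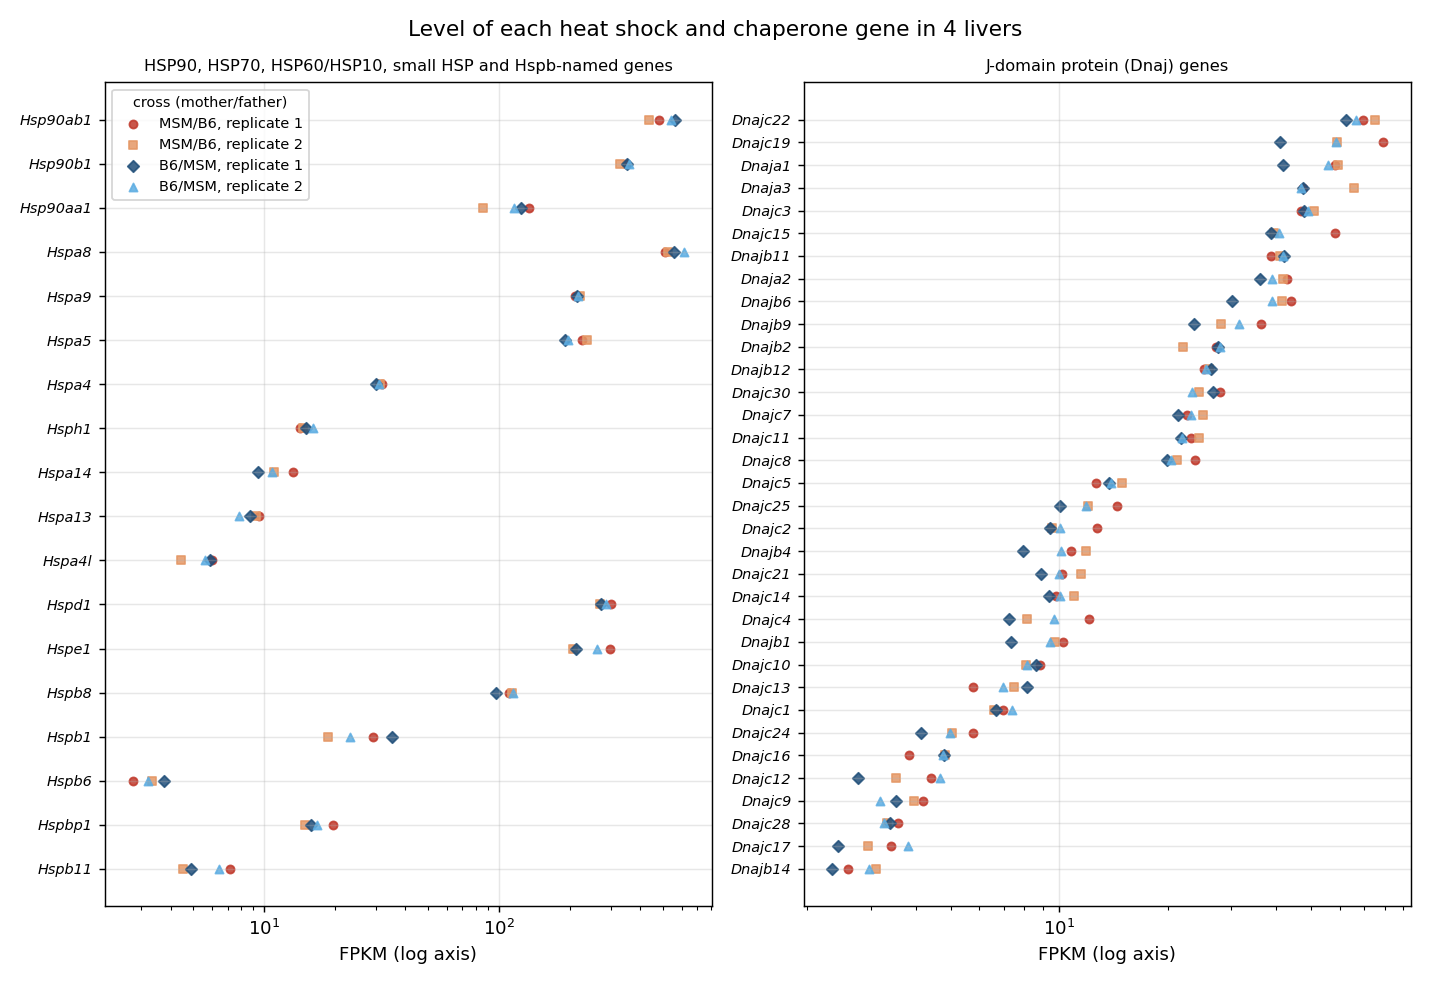
FPKM (log axes) of the 52 genes, 1 row per gene and 1 point per mouse, with J-domain genes on the right and all others on the left. The HSP90 genes, Hspa8, Hspa9, Hspa5, Hspd1, Hspe1 and Hspb8 have means over 100 FPKM, no J-domain gene exceeds a mean of 68.5, and the points of a gene lie within 1.93-fold of each other.

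Among HSP70 genes, Hspa8, the constitutive cytosolic HSP70, was the most abundant of the 52 genes. It had 510 and 525 FPKM in MSM/B6 replicates 1 and 2 and 555 and 614 in B6/MSM replicates 1 and 2. Its log2 difference (MSM/B6 minus B6/MSM) was -0.18 (SE 0.17, limma adjusted p = 0.724). Hspa9, the mitochondrial HSP70, was nearly constant at 211, 222, 216 and 217 FPKM in the same order of mice. Hspa5, the HSP70 of the ER (BiP), had 226 and 237 FPKM in MSM/B6 and 191 and 197 in B6/MSM. Its log2 difference of 0.25 (SE 0.15) had a limma adjusted p of 0.625. The remaining HSP70 genes were lower, with means of 30.9 FPKM for Hspa4, 15.1 for Hsph1, 11.1 for Hspa14, 8.83 for Hspa13 and 5.49 for Hspa4l. Hspa4, Hspa4l and Hsph1 encode relatives that help the release of nucleotide from HSP70.

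All 3 HSP90 genes were lowest in MSM/B6 replicate 2, which was the lowest mouse for 26.8% of all genes. Hsp90ab1, the constitutive cytosolic form, had 482 and 437 FPKM in MSM/B6 and 560 and 540 in B6/MSM. Hsp90b1, the ER form (GRP94), had 347, 328, 353 and 359 FPKM. Hsp90aa1, the more inducible cytosolic form, had 135, 85.9, 124 and 116 FPKM, and its highest-to-lowest ratio of 1.57 came mainly from the low value of MSM/B6 replicate 2. Its log2 difference between crosses was -0.15 (SE 0.23, limma adjusted p = 0.837) and was 0.17 without MSM/B6 replicate 2, so its direction rested on that mouse.

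Hspd1 and Hspe1, which encode the mitochondrial HSP60 and HSP10 and lie head to head on chromosome 1, were both highest in MSM/B6 replicate 1 and lowest in MSM/B6 replicate 2. Hspd1 had 299 and 269 FPKM in MSM/B6 and 271 and 286 in B6/MSM. Hspe1 had 297 and 207 in MSM/B6 and 214 and 261 in B6/MSM. The order of the 4 mice was the same for both genes, and the range was wider for Hspe1 (1.44-fold) than for Hspd1 (1.11-fold).

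Small heat shock genes spanned a broad range of levels. Hspb8, which works with the co-chaperone BAG3 in selective autophagy, was the most abundant with 111, 114, 97.2 and 114 FPKM. Hspb1 (HSP25), an inducible holdase, had 29.0 and 18.7 FPKM in MSM/B6 and 35.2 and 23.1 in B6/MSM. Within each cross replicate 1 was higher than replicate 2, the crosses overlapped, and the ratio of 1.88 was the second highest among the 52 genes. Hspb6 was close to the lower end of the tables, at 2.76 to 3.73 FPKM. Of the genes taken in by prefix, Hspbp1 had a mean of 16.9 FPKM and Hspb11 of 5.76.

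The J-domain genes ranged from 2.75 FPKM (Dnajb14, an ER membrane protein) to 68.5 FPKM (Dnajc22), with a median of 12.9. The Dnaja genes, classical partners of cytosolic (Dnaja1, Dnaja2) and mitochondrial (Dnaja3) HSP70, were all well expressed, with means of 53.7, 39.8 and 51.8 FPKM. Dnajb1 (HSP40), the inducible cytosolic partner, had 10.2, 9.72, 7.32 and 9.42 FPKM, below Dnaja1 and Dnaja2 in each mouse. J-domain proteins of the ER, which work with Hspa5, differed widely in level, with means of 48.5 FPKM for Dnajc3 (P58IPK), 40.8 for Dnajb11, 29.9 for Dnajb9, 8.41 for the disulfide reductase Dnajc10 and 6.89 for Dnajc1 of the ER membrane. Dnajc19 and Dnajc15, J-domain proteins of the mitochondrial import motor, had means of 59.4 and 44.3 FPKM. Dnajc19 had 79.0 and 59.0 FPKM in MSM/B6 and 40.9 and 58.7 in B6/MSM, the highest ratio of all 52 genes at 1.93. Dnajc15 stood at 58.2 FPKM in MSM/B6 replicate 1 and at 38.5 to 40.8 in the other mice. Dnajb6 (38.6), Dnajb2 (26.2), Dnajb12 (25.8), Dnajc30 (25.6), Dnajc7 (23.0), Dnajc11 (22.8) and Dnajc8 (21.3) formed a middle class by mean FPKM. Dnajc5, Dnajc25, Dnajc2, Dnajb4, Dnajc21 and Dnajc14 had means of 10.02 to 13.8, and Dnajc4 and Dnajc13 of 9.29 and 7.08. The lowest J-domain genes beside Dnajb14 were Dnajc17 (3.14), Dnajc28 (3.39), Dnajc9 (3.70), Dnajc12 (3.83), Dnajc16 (4.54) and Dnajc24 (4.97).

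No chaperone gene varied 2-fold between the mice. The highest FPKM was at least 2 times the lowest in 0 of 52 genes, beside 5.30% of all genes, and at least 1.5 times in 9 of 52 (17.3%), beside 21.7%. The median ratio was 1.29 for the 52 genes and for all genes, and it ranged from 1.05 in Dnajb12 and Hspa9 to 1.93 in Dnajc19. The 9 genes were Dnajc19, Hspb1, Dnajc12, Dnajc4, Hspb11, Hsp90aa1, Dnajc17, Dnajb9 and Dnajc15. None of the abundant HSP70 or HSP60 genes was among them.

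The mouse with the highest or lowest level was not spread evenly. MSM/B6 replicate 1 was highest for 24 of 52 genes (46.2%, beside 39.1% of all genes), and B6/MSM replicate 1 was lowest for 25 (48.1%, beside 32.3%). In the J-domain genes B6/MSM replicate 1 was lowest for 21 of 34, for example Dnaja1 with 41.8 FPKM against 55.5 to 59.4 in the others, and Dnajb6 with 30.2 against 38.9 to 43.9. Outside the J-domain genes it was lowest for 3 of 8 HSP70 genes and 1 of 3 small heat shock genes. It was lowest for none of the HSP90, HSP60 and HSP10 genes, nor for Hspb11 or Hspbp1, so the excess lay in the J-domain genes. After scaling every mouse to the same median of all genes, B6/MSM replicate 1 was still lowest for 22 of 52 (42.3%, beside 27.3% of all genes) and MSM/B6 replicate 1 highest for 20 (38.5%, beside 33.0%). These counts were not tested.

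Coding length went with this pattern. For genes with a coding length (longest annotated coding sequence) under 600 bp, the median deviation of MSM/B6 replicate 1 from the mean of the 4 mice on the log2(FPKM + 1) scale was 0.18 over the 9 chaperone genes and 0.23 over all 1182 genes, and that of B6/MSM replicate 1 was -0.18 and -0.16. For genes of 1500 bp or more, the medians for MSM/B6 replicate 1 were 0.01 over 20 chaperone genes and -0.08 over all 3403, and for B6/MSM replicate 1 they were -0.02 and 0.05. Between these classes, at 600 to 1500 bp, the medians for MSM/B6 replicate 1 were 0.10 over 23 chaperone genes and 0.08 over all 3681. For B6/MSM replicate 1 they were -0.11 and -0.05. The median short gene was thus above the mean of the mice in the former mouse and below it in the latter, among chaperones and among all genes. Dnajc19, Dnajc15 and Hspe1, with coding lengths of 471, 447 and 306 bp, were among the short genes highest in MSM/B6 replicate 1. Dnajc5 and Hspb6, with 594 and 486 bp, were lowest in that mouse. The part of length or of library quality in these values was not tested, and the length classes were chosen after the values were seen.

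**Figure D2:**
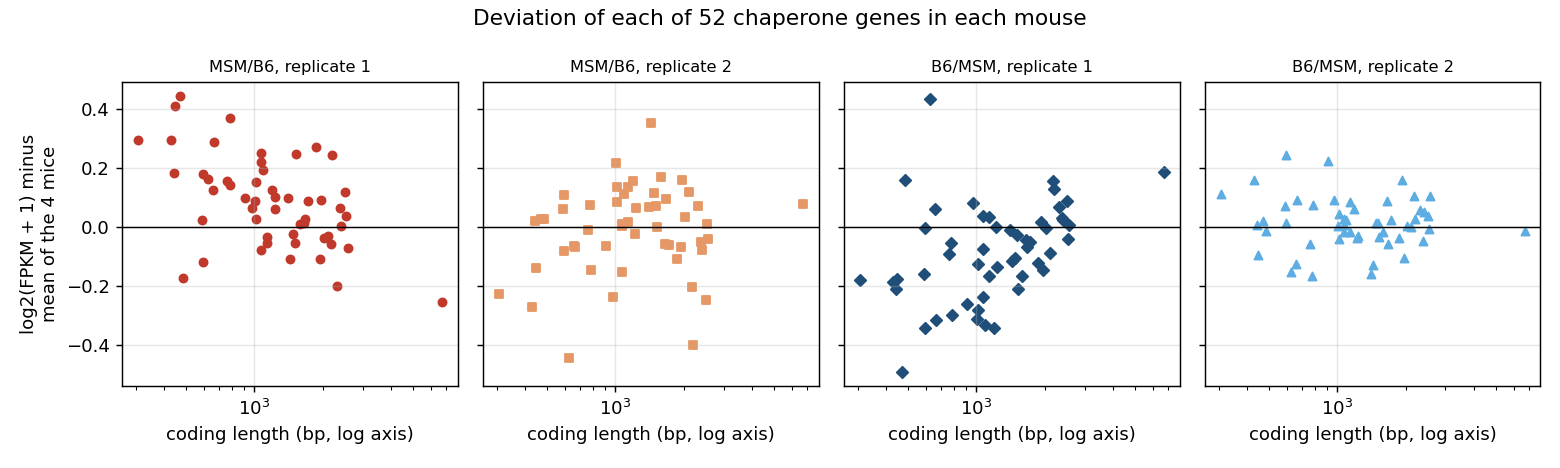
Deviation of each of the 52 genes (1 point per gene) in each mouse from its mean over the 4 mice on the log2(FPKM + 1) scale, against its coding length (bp, log axis). Points of short genes lie mostly above 0 in MSM/B6 replicate 1 and mostly below 0 in B6/MSM replicate 1, with medians under 600 bp of 0.18 and -0.18.

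To ask whether the direction of the cross changed chaperone expression, both crosses were compared with limma on log2(FPKM + 1). No chaperone gene was called (0 of 52, beside 0.0455% of all genes), and 0 of 52 reached an unadjusted p under 0.05, beside 8.87% of all genes. The latter count was 4 of 52 without MSM/B6 replicate 1 and 5 of 52 without MSM/B6 replicate 2 (961 and 1631 of all 8797 genes), 1 without B6/MSM replicate 2 and 0 without B6/MSM replicate 1, and 0 of 52 were called after adjustment in each case. The median of the absolute log2 difference was 0.15 for the 52 genes and 0.14 for all genes. The lowest adjusted p among the 52 was 0.580, for Dnajb4, a cytosolic J-domain gene with 10.7 and 11.8 FPKM in MSM/B6 and 7.90 and 10.1 in B6/MSM, a log2 difference of 0.31 (SE 0.14). Dnajc19 differed by 0.47 (SE 0.23, limma adjusted p = 0.589) and Dnajb6 by 0.31 (SE 0.16, limma adjusted p = 0.603), both in favor of MSM/B6. Without B6/MSM replicate 1 these differences were smaller, at 0.15 for Dnajb4, 0.21 for Dnajc19 and 0.13 for Dnajb6, and without B6/MSM replicate 2 they were 0.46, 0.73 and 0.48. Dnajc19 was at 0.26 without MSM/B6 replicate 1. Hsp90ab1 differed in the opposite direction by -0.26 (SE 0.16, limma adjusted p = 0.643). With 2 mice a cross, an exact permutation test cannot go below p = 0.333, so it could not call a gene.

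Allele-assigned reads showed which parental chromosome the mRNA came from. The 21 chaperone genes with a frequency were mostly close to equal use of the 2 alleles, with 18 of 21 (85.7%) at a mean between 0.4 and 0.6, beside 79.0% of all 3632 genes with a frequency. Their median frequency was 0.512 (0.510 over all genes), and their median absolute log2 odds of the B6 allele was 0.18 (0.24 over all genes), where 0 is equal use. The log2 odds differed from 0 by limma with adjustment over all genes in 6 of 21, beside 36.2% of all genes. 5 were called toward B6 (22.6% of all genes) and 1 toward MSM (13.6%).

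**Figure D3:**
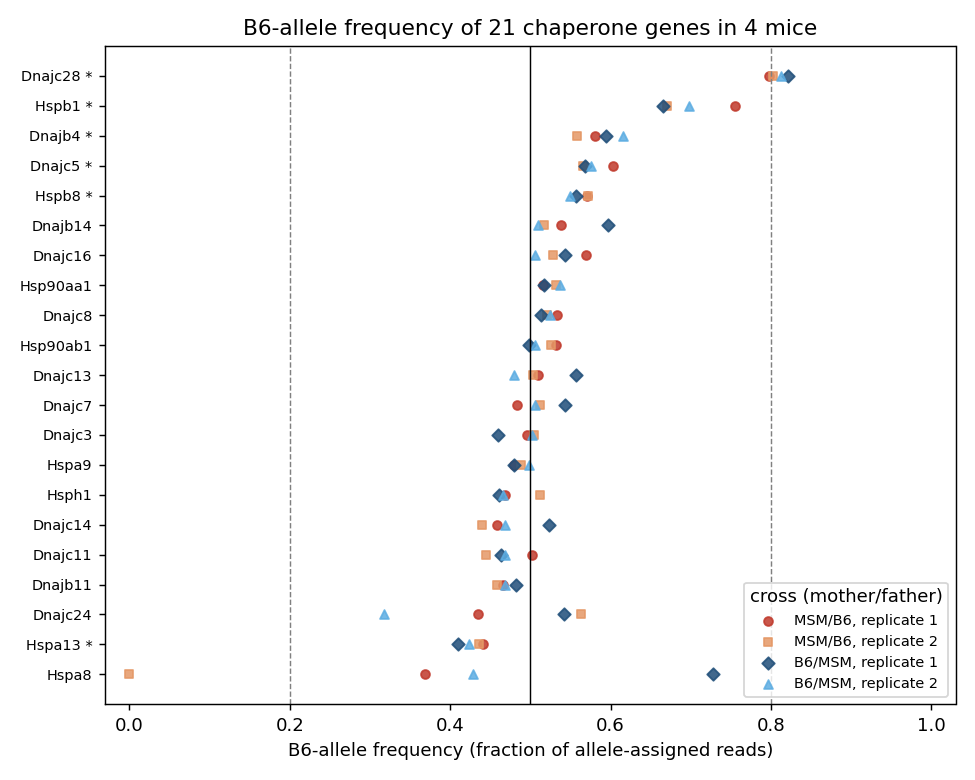
B6-allele frequency of the 21 chaperone genes, ordered by mean, with 1 point per mouse. The solid line marks equal use of the alleles at 0.5, dashed lines mark 0.2 and 0.8, and an asterisk marks a limma adjusted p under 0.05. Dnajc28 and Hspb1 lie to the right of the others, and Hspa8 and Dnajc24 have the widest spread.

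Dnajc28, a J-domain gene with little known of its function, was the most B6-biased. Its frequencies were 0.798 and 0.802 in MSM/B6 and 0.821 and 0.813 in B6/MSM. The 4 mice lay close together, and the log2 odds were 2.08 (SE 0.04, limma adjusted p = 9.0e-04). Its mean frequency of 0.808 made it the single one of the 21 genes at or above 0.8, beside 1.84% of all genes, and 0 were at or below 0.2, beside 1.35%. Dnajc28 was weakly expressed, with 3.27 to 3.57 FPKM.

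Hspb1 was the other gene with a marked bias, with B6-allele frequencies of 0.755 and 0.670 in MSM/B6 and 0.666 and 0.698 in B6/MSM. Every mouse used the B6 allele more, at log2 odds of 1.21 (SE 0.13, limma adjusted p = 0.0116). The mouse with the highest frequency was not the one with the highest FPKM. The other B6-biased genes were shifted less. Dnajb4 had 0.581, 0.558, 0.594 and 0.615 (log2 odds 0.51, SE 0.05, limma adjusted p = 0.0116). Dnajc5, a cysteine string protein of secretory vesicles, had 0.603, 0.566, 0.567 and 0.575 (log2 odds 0.45, SE 0.06, limma adjusted p = 0.0168). For Hspb8 the values were 0.570, 0.572, 0.557 and 0.549 (log2 odds 0.36, SE 0.04, limma adjusted p = 0.0134). In the opposite direction, Hspa13, an HSP70 of microsomes, had 0.441, 0.436, 0.409 and 0.424 (log2 odds -0.42, SE 0.04, limma adjusted p = 0.0115). No mouse of these 6 genes lay on the other side of 0.5.

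Most of these calls needed all 4 mice. Without MSM/B6 replicate 1 or 2, 2 genes were called each time (Dnajc28 and Hspb1), and without B6/MSM replicate 1 or 2 only Dnajc28 was called. Calls over all genes fell from 1316 to 439 and 514 and to 202 and 181 in the same refits. Adjusted p of Hspb1 was 0.0777 without B6/MSM replicate 1 and 0.0858 without replicate 2. The log2 odds of all 6 genes kept their sign in every refit. Leaving out a mouse could not change it, because all mice of each gene lay on the same side of equal use. The kept sign is thus no separate check of these calls.

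Of the remaining 15 genes, Dnajb11 was nearest to a call, with 0.466, 0.459, 0.482 and 0.469 (limma adjusted p = 0.0564). It was called toward MSM when only genes at a mean FPKM of 10 or more were tested and when each mouse was centred to a median log2 odds of 0. The cytosolic HSP90 genes used both alleles nearly equally, with 0.516, 0.532, 0.517 and 0.537 for Hsp90aa1 and 0.532, 0.525, 0.498 and 0.506 for Hsp90ab1. Both have copies in the genome, and an alignment that reports 1 place per read can put reads on a copy, so their values are uncertain. Hspa9 (mean 0.486), Hsph1 (0.477), Dnajc3 (0.491), Dnajc7 (0.511), Dnajc8 (0.523), Dnajc11 (0.469), Dnajc13 (0.512), Dnajc14 (0.472), Dnajc16 (0.536) and Dnajb14 (0.541) were not called. Dnajc24 spread from 0.318 to 0.563.

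Hspa8 had frequencies of 0.368, 0, 0.727 and 0.429, an SD of 0.299 in the most abundant gene of the set, where the median SD of the 21 genes was 0.0239. Frequencies were unevenly spread over the chromosomes in the whole tables. Of all genes that start beyond 100 Mb on chromosomes 1 to 15 and X, or beyond 10 Mb on chromosomes 16 to 19, 89.8% had one, and of the genes below these coordinates 1.97% had. Of the chaperone genes 20 of 23 beyond the coordinates had a frequency, and 1 of 29 below them, which was Hspa8 (chromosome 9, start 40800984). Having or lacking a frequency thus went with position. The supplementary notes of the study limit frequencies to genes with more than a minimum number of allele-discriminating reads, and the reads behind the Hspa8 values are not known. Hspa8 also has processed copies, so both its level and its frequency are uncertain. Genes without a frequency included Hspd1, Hspe1, Hspa5, Hsp90b1 and all 3 Dnaja genes, whose allele use was not analysed here.

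Reciprocal crosses separate the strain of an allele from the parent it came from. The frequency differed between the crosses in 0 of 21 genes by limma, beside 0.0826% of all genes, and 0 of 21 reached an unadjusted p under 0.05. The latter count was 1 without MSM/B6 replicate 1. The difference for Hspa8 depends on the limit of 0.01 set on its frequency of 0 and is not given. In log2 odds the difference for Dnajc28 was -0.16 (SE 0.09, limma adjusted p = 0.873) and for Hspb1 0.22 (SE 0.26, limma adjusted p = 0.934). The B6 allele of both genes was thus the more used one whether it came from the mother or the father.

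Dnajc28 lies on chromosome 16 from 91614254 to 91619026 on the minus strand (mm10). 6 genes with a frequency start or end within 100 kb of it. Gart, 2.16 kb away on the same strand, had frequencies of 0.373 to 0.427, on the MSM side of 0.5 in every mouse. Tmem50b (16.5 kb) had a mean of 0.424, Son (28.5 kb) 0.503, Ifngr2 (48.6 kb) 0.564, Atp5o (65.4 kb) 0.437 and Cryzl1 (70.3 kb) 0.454. The lowest frequency of Dnajc28 was above the highest of each of these genes. Gm15964, an antisense gene, overlaps Dnajc28. The library and alignment kept the strand, but how many reads the pair shares was not measured.

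**Figure D4:**
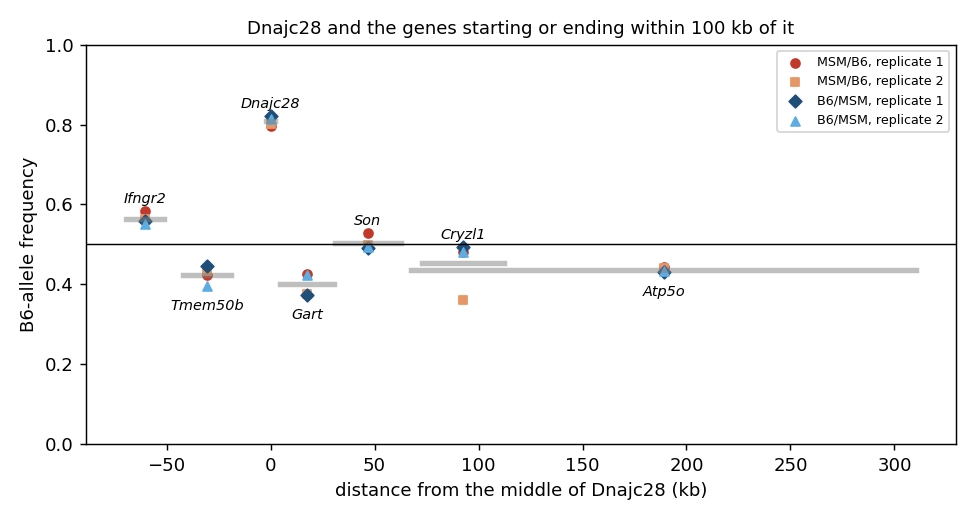
B6-allele frequency of Dnajc28 and of the genes within 100 kb, 1 point per mouse, against the distance of the middle of the gene from the middle of Dnajc28 (kb). Gray bars show the extent of each gene at its mean frequency. Dnajc28 is near 0.81 in each mouse, and its neighbors lie between 0.360 and 0.585.

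Hspb1 is on chromosome 5 from 135887919 to 135889563 on the plus strand. Its neighbors within 100 kb were also on the B6 side, but less so, with means of 0.580 for Ywhag (18.8 kb) and 0.551 for Mdh2 (97.5 kb). Dnajb4 (chromosome 3, 152178511 to 152210302, minus strand) is 0.12 kb from Fubp1 on the opposite strand, and both had a mean near 0.587 (0.588 for Fubp1). Dnajc5 (chromosome 2, 181520485 to 181555133, plus strand) at 0.578 stood above Tpd52l2 (0.506), Uckl1 (0.529) and Prpf6 (0.527). Hspb8 (chromosome 5, 116408491 to 116422864, minus strand) and Hspa13 (chromosome 16, 75745431 to 75767104, minus strand) had no neighbor with a frequency within 100 kb. Hspa13 overlaps the pseudogene Gm15553 on the same strand.

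The sequence just upstream of the 2 most biased genes is shown to give the allele frequencies their local context. It is the B6 reference (RefSeq, GRCm38.p6), written 5' to 3' on the strand of the gene. Bases that differ in MSM were not in the files used. For Hspb1 it is chr5:135887669-135887918, and capitals mark GAANNTTC, the short form of the inverted repeat bound by HSF1. For Dnajc28 it is chr16:91619027-91619249, and neither the short form nor the longer elements described next occur in it.
Hspb1: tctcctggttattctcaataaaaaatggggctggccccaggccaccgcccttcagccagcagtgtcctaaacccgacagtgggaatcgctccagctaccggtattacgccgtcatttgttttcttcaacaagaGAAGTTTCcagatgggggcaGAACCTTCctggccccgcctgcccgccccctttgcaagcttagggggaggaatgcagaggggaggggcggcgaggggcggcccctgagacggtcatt
Dnajc28: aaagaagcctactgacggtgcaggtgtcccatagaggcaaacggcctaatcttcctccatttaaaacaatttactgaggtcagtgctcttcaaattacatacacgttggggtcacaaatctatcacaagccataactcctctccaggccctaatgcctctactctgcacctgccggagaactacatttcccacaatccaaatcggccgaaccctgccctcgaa

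Heat shock elements and ER stress elements were then looked for in the 250 bases before each RefSeq start site, on both strands. Such a stretch was found for 41 of the 52 genes. It was missing for Hsp90aa1, Hsp90ab1, Hspa8, Hspa9, Hspa13, Dnajc2, Dnajc5, Dnajc11, Dnajc12, Dnajc22 and Dnajc30, which were thus not searched. The heat shock element (HSE), taken as GAA, TTC and GAA (or their complement) with 2 bases of any kind between units, was in 3 of 41 genes (7.32%), beside 0.514% of all 27025 genes with one and 0.536% of the 6714 of them in the mRNA tables. The ER stress element (ERSE), CCAAT and CCACG with 9 bases of any kind between them, was also in 3 of 41 (7.32%), beside 0.130% of all genes and 0.194% of those in the tables. The shorter GAANNTTC was in 6 of 41 (14.6%, beside 7.73% of all genes) and TTCNNGAA in 6 of 41 (14.6%, beside 8.12%), and both are contained in the HSE. A match is a description of letters and not a site of binding.

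Each site is shown in 30 bases on the strand of its gene, with the element in capitals, so that the letters behind these counts can be read. Hspd1 and Hspe1 share 1 site between their start sites (chr1:55088053-55088082, minus strand for Hspd1 and plus strand for Hspe1), in which 2 overlapping HSE matches run together. Dnajb6 has an HSE at chr5:29735844-29735873 (plus). The ERSE sites are those of Hspa5 (chr2:34772020-34772049, plus), Hsp90b1 (chr10:86705632-86705661 and chr10:86705527-86705556, minus) and Dnajc3 (chr14:118937822-118937851, plus).
Hspd1 HSE: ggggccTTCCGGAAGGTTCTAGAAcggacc
Hspe1 HSE: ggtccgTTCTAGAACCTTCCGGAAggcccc
Dnajb6 HSE: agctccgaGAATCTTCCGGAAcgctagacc
Hspa5 ERSE: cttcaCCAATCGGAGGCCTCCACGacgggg
Hsp90b1 ERSE, first: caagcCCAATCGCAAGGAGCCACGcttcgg
Hsp90b1 ERSE, second: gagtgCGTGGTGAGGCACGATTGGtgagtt
Dnajc3 ERSE: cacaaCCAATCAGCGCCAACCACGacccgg

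Regulators and partners of the chaperones were examined in lists of other genes. The HSF list (4 of 5 measured) had levels of 7.02 to 8.70 FPKM for Hsf1, the main activator of the heat shock response, and 49.4 to 67.8 for Hsbp1, a binding protein of HSF1. None of the 4 passed the test of expression between crosses, none of the 2 with a frequency passed the test of allelic imbalance, and none had a ratio of 2 or more.

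Of the 30 measured co-chaperones of HSP70 and HSP90, Fkbp8 had the highest mean at 179 FPKM. 6 of the 12 with a frequency were called in the limma test of allelic imbalance, 4 toward B6 and 2 toward MSM, beside 36.2% of all genes. Fkbp5, a glucocorticoid-induced immunophilin of HSP90, was the most B6-biased, with 0.674, 0.639, 0.726 and 0.683. Sil1 and Grpel2, exchange factors of ER and mitochondrial HSP70, had means of 0.634 and 0.633, and Cdc37l1 had 0.583. Bag3 (0.450), the partner of Hspb8, and Aarsd1 (0.411) were MSM-biased. Fkbp5 was also the list's only gene with a ratio of 2 or more, at 33.2 and 83.0 FPKM in MSM/B6 and 22.6 and 21.7 in B6/MSM.

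Among 23 ER chaperones and genes of the unfolded protein response, P4hb, a protein disulfide isomerase, had the highest mean at 570 FPKM and was the only one of 7 called for allelic imbalance (mean 0.547, toward B6). Herpud1, an ER stress gene of the membrane, had 248, 400, 155 and 270 FPKM, and Sdf2l1, a partner of Hspa5, had 13.6, 10.1, 20.2 and 19.7 FPKM. Both exceeded a ratio of 2, which Hspa5, Hsp90b1 and Dnajc3 did not. In the mitochondrial list (8 genes, highest mean 104 FPKM for Clpx) 0 of 4 were called for imbalance. In the list of the cytosolic chaperonin TRiC and prefoldin (13 of 14 genes measured, highest mean 110.5 FPKM for Cct5) Cct6a was called toward B6 (0.583) and Pfdn1 toward MSM (0.408), of 7. Beside these counts, 36.2% of all genes with a frequency were called for imbalance. No gene of any of these lists was called for a difference in expression or in frequency between the crosses.

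Immediate early genes, which respond quickly to handling, and clock genes were examined for their variation between the mice. The median ratio was 2.68 for immediate early genes and 1.74 for clock genes, beside 1.29 for the 52 chaperone genes and for all genes. 5 of 9 measured immediate early genes and 6 of 15 clock genes had a ratio of 2 or more, beside 5.30% of all genes. Per1, a clock gene, had 5.17, 14.3, 1.90 and 5.53 FPKM, and Ciart, another, ranged 41.8-fold. Of the 2 cold-inducible RNA-binding proteins, Rbm3 had 17.4, 25.5, 9.99 and 17.7 FPKM, a ratio of 2.55, and Cirbp, which was added after its values were seen, a ratio of 1.23. MSM/B6 replicate 2 had the highest Per1, Ciart and Rbm3. Per2 (1.44, 3.74, 1.63 and 3.69 FPKM) and Per3 (2.44, 5.18, 2.97 and 5.27) were nearly equal in replicate 2 of both crosses. All of these genes were higher in replicate 2 than in replicate 1 of each cross. The other clock genes with a ratio of 2 or more, Dbp and Nr1d1, were highest in a B6/MSM mouse. Dbp was higher in replicate 2 only in B6/MSM, and Nr1d1 was lower in replicate 2 of both crosses. Of the 52 chaperone genes, 12 (23.1%) were lowest in MSM/B6 replicate 2, beside 26.8% of all genes, and 14 (26.9%) were highest in it, beside 21.5%. All 3 HSP90 genes, Hspd1 and Hspe1 were among the former. Among the 8 HSP70 genes 2 were highest in it, Hspa5 and Hspa9, the latter with a ratio of 1.05, and 1 was lowest, Hspa4l. The part of time of day, temperature or handling in the chaperone values was not tested.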

How the data were processed

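Liver mRNA of 4 F1 mice, 2 per reciprocal cross, was analyzed, with groups from the sample titles. The authors deposited FPKM values and a B6-allele frequency, a fraction from 0 to 1. Per the methods, reads were trimmed with Trim Galore!, aligned by Tophat2 to mm10 masked at SNPs, divided by SNPsplit and counted by Cuffdiff, with versions not given in the sources used here.

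Frequencies were limited to 0.01 to 0.99, turned into log2 odds and fitted with limma 3.58.1 (R 4.3.3), the mean of both crosses being tested against 0 and the cross term giving the difference. Expression was fitted by limma with a variance trend on log2(FPKM + 1) (mean FPKM of 1 or more), which understates changes of low genes. Tests were two-sided, Benjamini-Hochberg adjusted over all genes at 0.05, and were tested on simulated data. P-values measure only the spread between these mice, which may be technical. Coordinates are from GENCODE M21. Python 3.11.15, numpy 2.4.6, pandas 2.3.3 and matplotlib 3.10.9 were used. The genes and lists were chosen with earlier results of these data known. Every chaperone gene could be named, and of each other list those called, those with a ratio of at least 2 and the highest. Other scales, limits, filters, pseudocounts, scalings, thresholds, the replicate number as a block and leaving out each mouse were tried.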

Additional observations from a re-analysis of the deposited data

How the results depend on the processing

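The count of 6 imbalanced chaperone genes ranged from 1 to 2 when a mouse was left out, with fewer samples in each refit. It was 6 on the frequency itself and with limits nearer to 0 and 1, 5 of 15 genes at a mean FPKM of 10 or more (Dnajc28 and Hspa13 were then not tested, and Dnajb11 was gained) and 7 after centring each mouse (Dnajb11 was gained). With a replicate block it was 4 (3 toward B6, 1 toward MSM), with limma adjusted p of 0.0552 for Dnajc5 and 0.0523 for Hspb8. Calls over all genes moved as well, from 1316 of 3632 in the main run. They were 1421 on the frequency itself, 1286 with the wider limits and 850 of 2000 at a mean FPKM of 10 or more. After centring they were 1309, and with the block 775. Equal replicate numbers did not deviate together in FPKM (correlation 0.00375) and did so weakly in log2 odds (0.146). Whether equal numbers share a litter, batch or day is not in the labels, and these correlations cannot settle it. The block left 0 chaperone genes called between the crosses in expression, while calls over all genes rose from 4 to 285. The count past 0.8 or 0.2 was 1 and became 0 with thresholds of 0.9 and 0.1 and again 0 at a mean FPKM of 10 or more. The 0 genes with a ratio of 2 became 9 at a ratio of 1.5. The Hsp90aa1 difference between crosses ranged from -0.48 to 0.17 when a mouse was left out, and the cause was not tested. The counts of calls between the crosses stayed at 0 in every alternative run. Of the values of single genes, 20 lost their call, all of them log2 odds. Another 97 kept their direction and side of the threshold, but most of these were expression differences, which had no call to lose. The depth of each single library is not given, and 2 mice a cross limit the tests.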
